A study of Mus musculus with 675 samples.

Results

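The 10 genes described here make, sense or remove cyclic GMP (cGMP) in the vessel wall: the natriuretic peptide receptors Npr1, Npr2 and Npr3, the soluble guanylyl cyclase subunits Gucy1a1 and Gucy1b1, the cGMP-dependent kinase Prkg1 and its substrate Mrvi1, and the phosphodiesterases Pde5a, Pde3a and Pde1a. They were chosen by symbol from the pathway, and all 10 were found among 46517 gene identifiers through the mouse GRCm38 annotation. They were read in single cells labelled as mouse aorta, by cell class.

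Cyclic GMP relaxes vascular smooth muscle. Natriuretic peptides raise it through Npr1 and Npr2, receptors whose inner part is itself a guanylyl cyclase, while nitric oxide made in endothelium raises it through the soluble cyclase, a dimer of the Gucy1a1 and Gucy1b1 products. The kinase Prkg1 carries much of the response by lowering calcium and calcium sensitivity, and phosphodiesterases break cyclic nucleotides down and end the signal.

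The assay was Smart-seq2, a full-length cDNA method for cells sorted into wells. It covered 675 cells of C57BL/6 males, all 10 weeks old. Of these, 54.4% came from 2 mice pooled on a first plate (pool A) and 45.6% from 2 further mice pooled on a second plate (pool B), so plate and mice cannot be told apart. The protocol text names the heart although the tissue label is aorta, and no genotype, treatment or sort gate is given in the sources used here. The replicate is the pool (n = 2), and nothing separates the 2 mice within one.

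Cells were grouped by genes other than those tested. By contractile markers 558 cells were smooth muscle-like (82.8% of pool A and 82.5% of pool B), by matrix markers 63 were fibroblast-like (39 and 24) and by vessel-lining markers 21 were endothelial-like (14 and 7). The other 33 cells stayed unnamed. A cell held 51886 to 713700 counts, with a median of 279661 in pool A and 299297 in pool B. Counts summed per class and pool were 90390233 and 82937753 in smooth muscle-like cells, 6670044 and 3683554 in fibroblast-like cells and 3080887 and 1196130 in endothelial-like cells. Defining markers fitted the names: the smooth muscle list reached 100 CPM (counts scaled to a common total per class and pool) for 8 of 8 genes in smooth muscle-like cells, the fibroblast list for 8 of 8 in fibroblast-like cells and the endothelial list for 7 of 8 in endothelial-like cells. The exception was Vwf, at 84.4 CPM in pool A and 0 in pool B. Endothelial-like cells were led by Cd36, Gpihbp1 and Cd300lg, and the kind of vessel they lined was not tested. The names are not clean, because the 8 smooth muscle markers summed to 1843 and 3175 CPM (pool A and pool B) in the fibroblast-like class and 2130 and 3301 CPM in the endothelial-like cells, against 20226 and 18352 CPM in the smooth muscle-like cells. No marker of that list was at 0 in any of the 3 classes.

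Promoters are shown for 4 of the 5 genes that were higher in smooth muscle-like cells than in fibroblast-like cells, since their transcripts moved in the same direction. Each run is the 250 bases before a transcript start in RefSeq (GRCm38.p6), on the gene's own strand, with GGGCGG (the GC box) and CATTCC (the MCAT element of muscle genes) in capitals on either strand, so that CCGCCC and GGAATG are their reverse forms. Gucy1a1 lies at chr3:82145651-82145900, Gucy1b1 at chr3:82074712-82074961, Npr1 at chr3:90465867-90466116 and Mrvi1 at chr7:110982462-110982711, all on the minus strand.
Gucy1a1: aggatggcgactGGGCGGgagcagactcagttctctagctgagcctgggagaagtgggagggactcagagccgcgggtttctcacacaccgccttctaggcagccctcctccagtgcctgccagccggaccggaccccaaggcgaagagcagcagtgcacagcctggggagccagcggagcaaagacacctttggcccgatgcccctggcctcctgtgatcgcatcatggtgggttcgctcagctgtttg
Gucy1b1: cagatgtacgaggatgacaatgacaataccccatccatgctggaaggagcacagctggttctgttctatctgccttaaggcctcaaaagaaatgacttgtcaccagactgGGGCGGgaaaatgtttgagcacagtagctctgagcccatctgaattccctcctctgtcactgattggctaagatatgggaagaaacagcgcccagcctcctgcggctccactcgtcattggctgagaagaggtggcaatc
Npr1: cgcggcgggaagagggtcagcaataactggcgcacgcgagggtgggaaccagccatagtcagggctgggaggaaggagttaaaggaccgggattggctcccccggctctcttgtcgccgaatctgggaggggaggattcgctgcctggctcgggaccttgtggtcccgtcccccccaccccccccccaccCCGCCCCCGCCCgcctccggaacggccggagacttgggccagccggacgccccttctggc
Mrvi1: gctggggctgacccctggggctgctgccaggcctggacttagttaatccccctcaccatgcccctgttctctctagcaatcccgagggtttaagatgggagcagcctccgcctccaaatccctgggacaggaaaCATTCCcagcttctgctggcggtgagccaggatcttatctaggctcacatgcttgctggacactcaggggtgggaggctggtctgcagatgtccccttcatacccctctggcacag
GGGCGG stood once in the Gucy1b1 run and once near the far end of this Gucy1a1 run. The Npr1 run held its reverse form at 60 to 55 and at 54 to 49 bases before the start, and the Mrvi1 run held CATTCC once. Gucy1a1 and Mrvi1 each have 2 promoters in the table, and the one not printed held neither GGGCGG nor CATTCC. The RefSeq table held 15 promoters for 9 of the 10 genes, and GGGCGG was in 6 of the 15 against 32.7% of all 32851 promoters of that length. CATTCC was in 3 of the 15 against 12.6%, and the CArG box, the element bound by serum response factor in contractile genes, was in 0 of the 15 against 1.47%. Base composition differed, with 70.4% G and C in the Npr1 run, 64% in Gucy1a1, 59.6% in Mrvi1 and 51.2% in Gucy1b1, against a median of 52.4% over all promoters. These are matches of letters and no test of binding.

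Among the 10 genes, Gucy1a1, Gucy1b1, Mrvi1 and Npr1 had the highest levels per length in smooth muscle-like cells. To set genes side by side, levels were divided by the length of all annotated exons of a gene, merged. The transcripts present may be shorter, so the order of genes depends on the annotation. Per kilobase of exons Gucy1a1 averaged 64.3 ± 1.04 CPM per kb, Gucy1b1 61.9 ± 1.36, Mrvi1 60.5 ± 10.0 and Npr1 58.6 ± 12.1 CPM per kb (mean ± SD, n = 2 pools). These 4 means lay within the spread of Mrvi1 and Npr1 between pools. Pde3a followed at 27.4 ± 0.17 CPM per kb, then Npr2 at 15.7 ± 9.56, Pde5a at 13.5 ± 5.82 and Pde1a at 6.59 ± 0.045 CPM per kb. Npr2 and Pde5a did not differ beyond their spread. The kinase Prkg1 averaged 3.22 ± 0.45 CPM per kb and the clearance receptor Npr3 0.41 ± 0.0063 CPM per kb. Npr1 and both subunits of the soluble cyclase thus stood at close levels per length, and the cyclase Npr2 and the kinase stood lower.

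**Figure D1:**
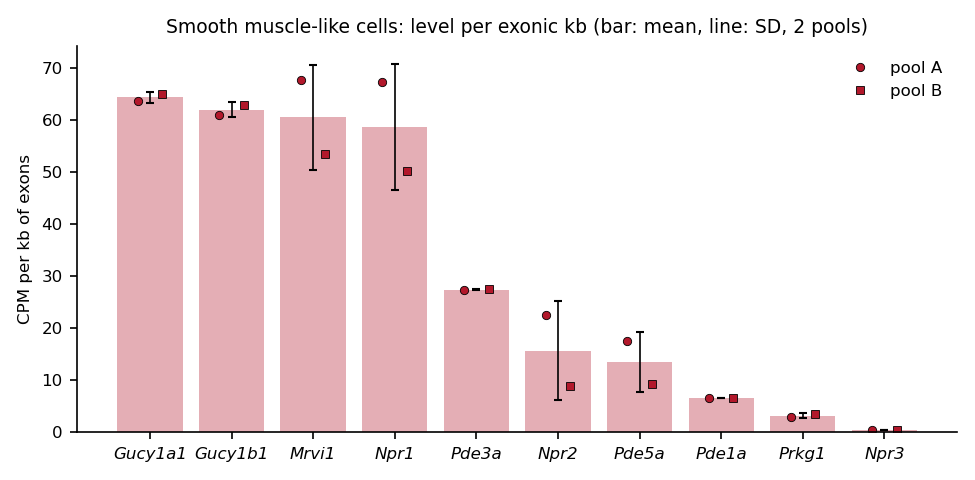
Level of each cGMP gene per kilobase of exons (CPM per kb) in smooth muscle-like cells, highest first; bars are means of 2 pools, lines are SD, circles pool A and squares pool B. Gucy1a1, Gucy1b1, Mrvi1 and Npr1 stand between 58.6 and 64.3 CPM per kb, and Prkg1 and Npr3 at 3.22 and 0.41.

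Against fibroblast-like cells, 5 of the 10 genes stood higher in smooth muscle-like cells (Mrvi1, Gucy1a1, Gucy1b1, Pde3a and Npr1), 0 were lower and 5 were not called. The test was edgeR's quasi-likelihood F test on the summed counts with the pool as a block, called at a Benjamini-Hochberg adjusted p under 0.05. Of all 8532 genes tested, 5.58% were called, 2.31% as higher and 3.27% as lower. The median log2 fold change was 1.99 over the 10 genes and 0.26 over all genes tested. Without the replicate block 3 of the 10 were called.

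**Figure D2:**
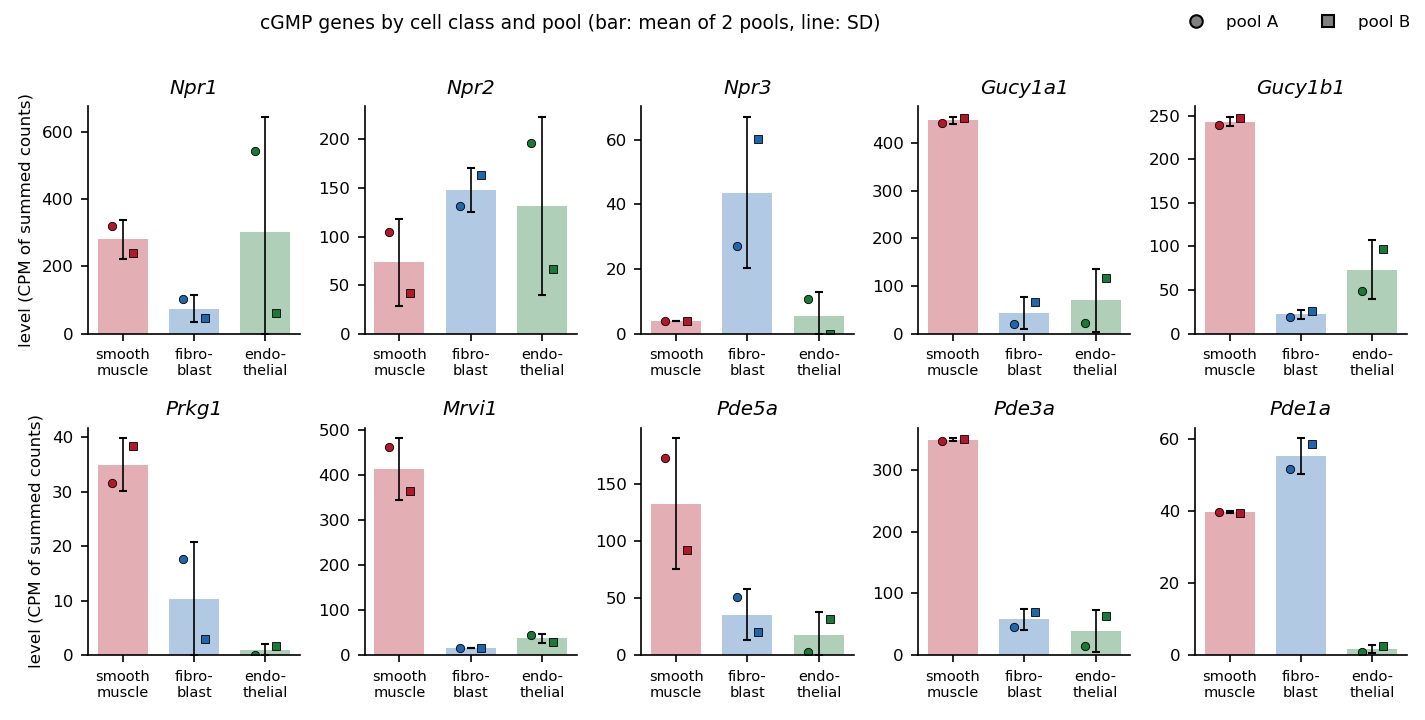
Level of each cGMP gene (CPM of counts summed per class and pool) in smooth muscle-like, fibroblast-like and endothelial-like cells; bars are means of 2 pools, lines are SD drawn no lower than 0, circles pool A and squares pool B, and each panel has its own axis. Gucy1a1, Gucy1b1, Mrvi1 and Pde3a are high in both pools of smooth muscle-like cells, while the Npr1 points of endothelial-like cells lie far apart at 545 and 61.03 CPM.

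Npr1 is the receptor for atrial and B-type natriuretic peptide. Its level was 321.2 and 239.6 CPM (pool A and pool B) in smooth muscle-like cells, against 101.9 and 45.6 CPM in the fibroblast-like cells, and both pools of the first lay above both of the second. It was higher by 1.90 ± 0.32 on the log2 scale (SE, adjusted p = 0.0254), with a ratio of 3.15 in pool A and 5.25 in pool B. The call was lost without the replicate block (adjusted p = 0.0998), with coarser clusters (resolution 0.5, 0.0588) and in a single fit of all classes (0.27). Over single smooth muscle-like cells the lowest value was 0, the median 282.2 CPM in pool A and 179.3 CPM in pool B, and the highest 1530 and 1295 CPM. In fibroblast-like cells the medians were 15.04 and 13.57 CPM, and the highest cell alone held 20% of the pool A counts and 51.8% of the pool B counts.

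In endothelial-like cells Npr1 differed widely between pools. It was at 545 CPM in pool A and 61.03 CPM in pool B, and both smooth muscle-like pools lay between these values. The difference between classes was 0.50 ± 0.49 on the log2 scale (adjusted p = 0.631), with ratios of 0.589 in pool A and 3.92 in pool B. The SE rests on an error shared over genes and does not measure the gap between these ratios. A count was present in 13 of 14 endothelial-like cells of pool A, at a median of 403 CPM, and in 5 of 7 of pool B, at a median of 10.0 CPM. Without the block the log2 value was -0.24 and with finer clusters (resolution 1.5) it was -0.66. Erythroid markers summed to 11.04 CPM in the endothelial-like cells of pool A and 1088 CPM in those of pool B, and their part in the result was not tested.

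Npr2, the receptor for C-type natriuretic peptide, had the highest mean in fibroblast-like cells. It was at 104.9 and 41.8 CPM in the smooth muscle-like cells, at 131.5 and 163.7 CPM in the fibroblast-like cells and at 196.4 and 66.9 CPM in the endothelial-like cells. Smooth muscle-like and endothelial-like cells were both higher in pool A, and their ranges overlapped. Neither comparison of smooth muscle-like cells was called, at -1.27 ± 0.48 against fibroblast-like cells (adjusted p = 0.234) and -0.88 ± 0.77 against endothelial-like cells (adjusted p = 0.576). Npr2 was uneven among smooth muscle-like cells, with a count in 68.4% of cells in pool A and 54.3% in pool B, and medians of 11.7 and 2.51 CPM beneath maxima of 1351 and 481 CPM.

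Npr3 has no cyclase part and removes natriuretic peptides from the cell surface. It was at 3.91 and 3.82 CPM in the smooth muscle-like cells, against 27.1 and 60.3 CPM in the fibroblast-like cells, without overlap. The log2 value of -3.51 ± 0.88 missed the threshold (adjusted p = 0.0928). In the fibroblast-like cells the counts came from 5 of 39 cells in pool A and 7 of 24 in pool B, and the highest cell held 47.5% and 38.3% of them. In endothelial-like cells 3 of 14 cells of pool A had a count (10.7 CPM) and 0 of 7 of pool B, where 3 counts would be 2.51 CPM.

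Gucy1a1 and Gucy1b1 encode the alpha and beta subunits of the nitric oxide receptor, and are neighbours on chromosome 3 with 17737 bases between them (Gucy1a1 at 82092427 to 82145789, Gucy1b1 at 82032006 to 82074689, both on the minus strand of GRCm38). Gucy1a1 was at 443 and 453 CPM in the smooth muscle-like cells, against 19.8 and 66.8 CPM in the fibroblast-like cells. Gucy1b1 was at 239.5 and 247.02 CPM in the smooth muscle-like cells, against 18.6 and 26.1 CPM in the fibroblast-like cells. The smooth muscle-like pools were nearly equal for both subunits and stood far above every fibroblast-like pool. Gucy1a1 was higher by 3.49 ± 0.47 on the log2 scale (adjusted p = 0.0115), with a ratio of 22.4 in pool A and 6.78 in pool B. Gucy1b1 was higher by 3.34 ± 0.34 (adjusted p = 0.00413), with ratios of 12.9 and 9.48, and its call held under all 10 alternatives with a test (adjusted p at most 0.035), with a lowest value of 1.54 at coarser clusters (resolution 0.5). For Gucy1a1 the call was lost without the replicate block (adjusted p = 0.0511), and with coarser clusters (resolution 0.5) the value was 0.74 (adjusted p = 0.078).

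Against endothelial-like cells Gucy1a1 was also higher, at 443 and 453 CPM in the smooth muscle-like cells and 23.05 and 116.2 CPM in the endothelial-like cells. The log2 difference was 3.02 ± 0.53 (adjusted p = 5.96e-07), with a ratio of 19.2 in pool A and 3.90 in pool B, and without the replicate block the adjusted p was 0.123. Gucy1b1 was at 49.3 and 96.98 CPM in the endothelial-like cells and was not called (1.73 ± 0.62, adjusted p = 0.0738). One cell held 76.1% of the Gucy1a1 counts of endothelial-like cells in pool A and one held 84.9% in pool B, and for Gucy1b1 93.4% and 90.5%. The 6 pericyte markers summed to 634 CPM in the endothelial-like cells of pool A and 2916 CPM in pool B, where Gucy1a1 was also higher, and their part in the result was not tested.

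Most single smooth muscle-like cells had a count of each subunit. A count of both was present in 538 of 558 smooth muscle-like cells (96.4%, exact 95% interval 94.5 to 97.8%), of Gucy1a1 alone in 15, of Gucy1b1 alone in 4 and of neither in 1. With every cell thinned to 20000 counts, both were seen in 78.5% of smooth muscle-like cells, against 12.7% of fibroblast-like and 14.3% of endothelial-like cells. In smooth muscle-like cells Gucy1a1 was seen in 99.1% before thinning and 91.6% after, and Gucy1b1 in 97.1% and 84.1%. Genes seen this often share most cells for that reason alone. Whether the subunits met in a cell more often than these shares give was not tested. The level of Gucy1a1 over that of Gucy1b1 per exonic length was 1.04 and 1.03 (pool A and pool B) in smooth muscle-like cells, against 0.60 and 1.44 in fibroblast-like cells and 0.26 and 0.68 in endothelial-like cells. Over single smooth muscle-like cells of each pool Gucy1a1 correlated with Gucy1b1 at a Spearman rho of 0.15 in pool A and 0.19 in pool B, the only pair of 45 at 0.1 or more in both pools. All pairs lay between -0.17 and 0.21, and such values in sparse counts of cells that share a plate are a description. Both subunits also rose weakly with the total count of a cell, Gucy1a1 at a rho of 0.064 and 0.109 (pool A and pool B) and Gucy1b1 at 0.118 and 0.146. The part of depth in their correlation was not tested.

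Mrvi1, also called IRAG, is the protein through which Prkg1 restrains calcium release at the inositol trisphosphate receptor. It had the largest fold of the 10 genes over fibroblast-like cells. Its level was 461 and 364.3 CPM in the smooth muscle-like cells, against 15.3 and 15.7 CPM in the fibroblast-like cells, higher by 4.60 ± 0.30 on the log2 scale (adjusted p = 0.00108). Within pools the ratios were 30.15 (A) and 23.1 (B). Endothelial-like cells had 44.5 and 29.3 CPM, and the log2 difference of smooth muscle-like cells over them was 3.42 ± 0.56 (adjusted p = 4.67e-08), with ratios of 10.4 and 12.45. A single cell held 91.2% of the endothelial-like counts of pool A and 51.4% of those of pool B. Both calls held under every one of the 10 alternatives with a test, the highest adjusted p being 0.0078 against fibroblast-like and 0.0332 against endothelial-like cells. In single smooth muscle-like cells the median was 429 CPM in pool A and 330 CPM in pool B, with highest values of 2115 and 2231 CPM.

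Prkg1, the kinase itself, was seen far less often. It was at 31.5 and 38.4 CPM in the smooth muscle-like cells, at 17.7 and 2.99 CPM in the fibroblast-like cells and at 0 and 1.67 CPM in the endothelial-like cells. It was not called against either class (2.07 ± 1.12, adjusted p = 0.368, and 6.23 ± 2.65, adjusted p = 0.179), the second value resting on 2 endothelial-like counts. A count was present in 32.2% of smooth muscle-like cells of pool A and 44.9% of pool B, so the median cell was at 0 in both, with highest values of 778 and 518 CPM. Of the fibroblast-like counts in pool A, 98.3% came from 1 cell. The gene lies on chromosome 19 (30564489 to 31765033, minus strand of GRCm38) with 10861 bases of exons, and its level per length was the second lowest of the 10 in smooth muscle-like cells.

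Pde3a breaks down cyclic AMP and is inhibited by cGMP. It was at 347.4 and 350.5 CPM in the smooth muscle-like cells, against 46.03 and 70.3 CPM in the fibroblast-like cells, higher by 2.49 ± 0.29 on the log2 scale (adjusted p = 0.00644). Endothelial-like cells had 14.6 and 63.5 CPM, and smooth muscle-like cells were higher than them by 3.42 ± 0.62 (adjusted p = 1.51e-06). The smooth muscle-like pools lay above all others in both comparisons. Ratios over fibroblast-like cells were 7.55 in pool A and 4.98 in pool B, and over endothelial-like cells 23.8 and 5.52, where a single cell held 88.9% and 81.6% of the endothelial-like counts. The call over endothelial-like cells was lost without the replicate block (adjusted p = 0.115), and with finer clusters, where the value was 1.04. The call over fibroblast-like cells was lost with coarser clusters, where the value was 0.95 (adjusted p = 0.0851), and in a single fit of all classes (adjusted p = 0.125).

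Pde5a, the cGMP-specific enzyme that sildenafil inhibits, was at 172.9 and 92.1 CPM in the smooth muscle-like cells, against 51.1 and 19.8 CPM in the fibroblast-like cells. The log2 value of 1.86 ± 0.39 narrowly missed the threshold (adjusted p = 0.0535), and 5 of 10 alternatives with a test called it. Endothelial-like cells had 2.60 and 31.8 CPM, with a log2 value of 3.62 ± 1.25 (adjusted p = 0.0505). Both smooth muscle-like values lay above all the others. Cells varied widely: the smooth muscle-like median was 106.5 CPM in pool A and 26.7 CPM in pool B, and a count was present in 86.8% and 80.3% of cells.

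Pde1a, an enzyme switched on by calcium and calmodulin, did not follow the other phosphodiesterases. It was at 39.8 and 39.4 CPM in the smooth muscle-like cells, against 51.6 and 58.6 CPM in the fibroblast-like cells, and was not called (-0.60 ± 0.49, adjusted p = 0.585). Endothelial-like cells had 0.97 and 2.51 CPM from 3 counts in each pool, and the log2 value against them was 4.58 ± 2.22 (adjusted p = 0.28). In fibroblast-like cells 1 cell held 41.6% of the counts of pool A and 1 held 66.2% of those of pool B. The median smooth muscle-like cell was at 2.83 and 2.87 CPM, beneath maxima of 802 and 499 CPM.

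**Figure D3:**
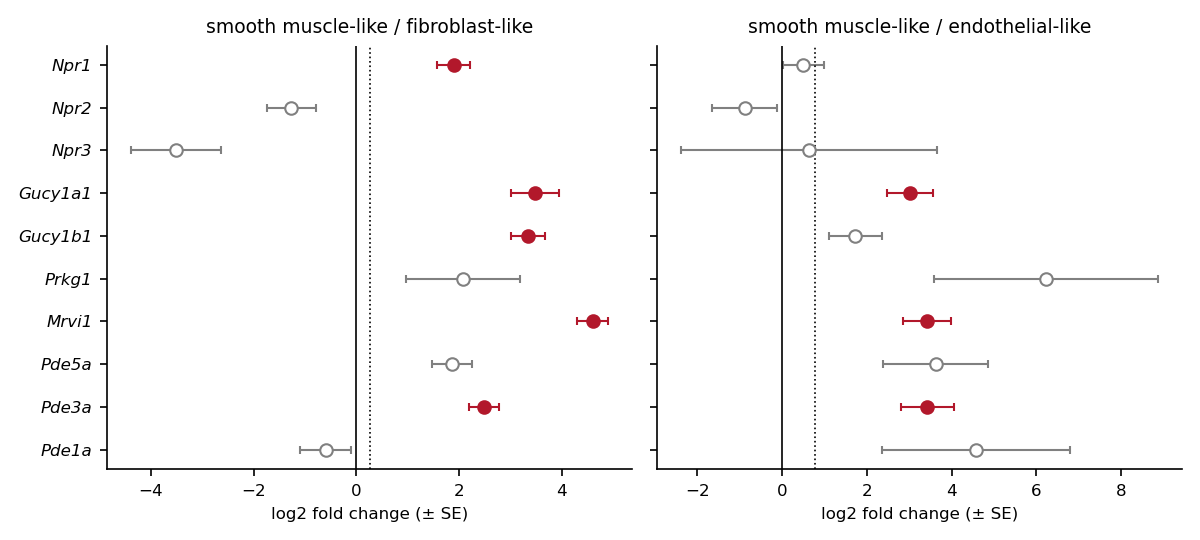
log2 fold change ± SE of the 10 cGMP genes in smooth muscle-like over fibroblast-like cells (left) and over endothelial-like cells (right), from sums per pool; filled red points are called at an adjusted p under 0.05, the solid line is 0 and the dotted line the median of all genes tested (0.26 and 0.78). Mrvi1 stands farthest right on the left panel at 4.60, and Npr1 lies near the dotted line on the right panel at 0.50.

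Against endothelial-like cells in all, 3 of the 10 genes stood higher in smooth muscle-like cells (Gucy1a1, Mrvi1 and Pde3a), 0 were lower and 7 were not called. Of all 8289 genes tested 7.19% were called, 3.27% as higher and 3.92% as lower. The median log2 fold change was 3.22 over the 10 genes and 0.78 over all genes tested, and with size factors of another kind that general median moved by -0.12. Without the replicate block 1 of the 10, Mrvi1, was called. The smooth muscle-like sums were the same ones as in the comparison with fibroblast-like cells, so the values of these comparisons are not independent. The smaller adjusted p-values here do not mean firmer differences, since no gene's own spread entered the error of this comparison. The cells clustered were also the cells tested, although no gene tested had formed the clusters.

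Between fibroblast-like and endothelial-like cells edgeR's test called 0 of the 10 genes, and Pde1a was the 1 gene with an unadjusted p under 0.05. Of all 5819 genes tested 5.46% were called, 2.84% as higher and 2.63% as lower in fibroblast-like cells, and 990 had an unadjusted p under 0.05. Pde1a had 51.6 and 58.6 CPM in the fibroblast-like cells, against 0.97 and 2.51 CPM in the endothelial-like cells (5.16 ± 1.99, unadjusted p = 0.0287, adjusted p = 0.239), and DESeq2 called 1 of the 10. The SE of these log2 values ran from 0.71 for Npr1 to 3.28 for Prkg1, so differences of several-fold could not be told from none at this depth.

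The low levels outside smooth muscle-like cells can be set beside those of contractile markers. In fibroblast-like cells Mrvi1 was at 3.32% and 4.32% of its smooth muscle-like level (pool A and pool B), Gucy1a1 at 4.47% and 14.7% and Gucy1b1 at 7.76% and 10.6%. The heavy chain Myh11, a defining smooth muscle gene, was at 2.48% and 5.51% there, Tagln at 7.76% and 12.8% and Acta2 at 17.1% and 35.2%. In endothelial-like cells Mrvi1 was at 9.64% and 8.03%, and Myh11 at 7.50% and 6.22%. Over all 8 contractile markers the range in fibroblast-like cells was 2.48% to 17.1% in pool A and 5.43% to 35.2% in pool B. Gucy1a1, Gucy1b1 and Pde3a (13.2% and 20.1%) lay inside it in both pools, and Mrvi1 lay inside it in pool A and below it in pool B. Whether their counts there came from smooth muscle RNA was not tested. Npr1 (31.7% and 19.04%) and Pde5a (29.6% and 21.5%) lay above it in pool A and inside it in pool B, and so did Prkg1 (56.1% and 7.78%). Npr2, Npr3 and Pde1a lay above it in both pools, at 125.4% or more.

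The genes were also read as the share of cells with a count, after thinning to 20000 counts per cell so that all cells had the same depth. Defining smooth muscle genes were seen in all 3 classes at this depth, Myh11 in 100% of smooth muscle-like, 92.1% of fibroblast-like and 80.95% of endothelial-like cells, and Lmod1, a regulator of actin filaments in smooth muscle, in 99.6%, 47.6% and 33.3% of the same classes. The shares of fibroblast-like and endothelial-like cells with a count of the cGMP genes were below those of Myh11, and are given as values and not read as expression. In endothelial-like cells the shares of Npr1, Mrvi1 and Npr2 were above that of Lmod1. Median depth before thinning was 302608 counts in smooth muscle-like, 147370 in fibroblast-like and 227777 in endothelial-like cells. Nos3, an endothelial gene that is scarce in the other classes, was seen in 0.896% of smooth muscle-like and 4.76% of fibroblast-like cells, against 66.7% of endothelial-like cells. Gucy1a1 was seen in 91.6% of smooth muscle-like cells, 36.5% of fibroblast-like cells and 33.3% of endothelial-like cells. Mrvi1 was seen in 90.1% of smooth muscle-like, 26.98% of fibroblast-like and 47.6% of endothelial-like cells. For Gucy1b1 these shares were 84.1% of smooth muscle-like, 20.6% of fibroblast-like and 28.6% of endothelial-like cells. Pde3a was seen in 86.4% of smooth muscle-like, 36.5% of fibroblast-like and 28.6% of endothelial-like cells. Npr1 was seen in 79.7% of smooth muscle-like, 39.7% of fibroblast-like and 71.4% of endothelial-like cells. Npr2 was in 37.1% of smooth muscle-like, 47.6% of fibroblast-like and 42.9% of endothelial-like cells, with intervals that overlap. Without thinning the smooth muscle-like shares were 99.1% for Gucy1a1, 99.3% for Mrvi1, 98.03% for Pde3a, 97.1% for Gucy1b1, 95.7% for Npr1 and 62.01% for Npr2. For Prkg1 and Pde1a 0 of 21 thinned endothelial-like cells had a count.

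**Figure D4:**
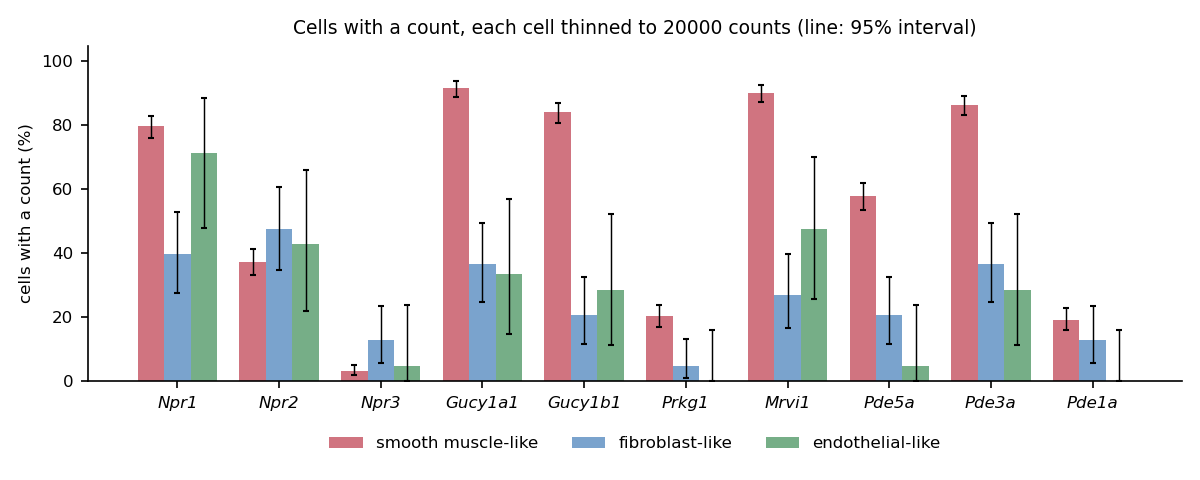
Percent of cells with a count of each cGMP gene after every cell was thinned to 20000 counts, in 558 smooth muscle-like, 63 fibroblast-like and 21 endothelial-like cells; lines are exact 95% binomial intervals, which cover counting error only. Gucy1a1, Mrvi1, Pde3a and Gucy1b1 are seen in over 84% of smooth muscle-like cells, and Npr1 in 79.7% of these and 71.4% of endothelial-like cells.

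Smooth muscle-like cells fell into 6 clusters. The largest clusters were cluster 1 (26.7% of all cells, 87.8% of it from pool A) and cluster 0 (27.6% of all cells, 84.9% of it from pool B), and their comparison within pools called 0 of the 10 genes and 0% of 7490 genes by edgeR (2.86% at an unadjusted p under 0.05, and 0.163% called by DESeq2). Mrvi1 was at 479 and 436 CPM in cluster 1, against 395 and 326.04 CPM in cluster 0, higher in both pools (0.38 ± 0.16, unadjusted p = 0.054). Npr2 differed in opposite ways, at 110.6 and 21.4 CPM in cluster 1 and 42.8 and 34.4 CPM in cluster 0. Over all 6 clusters the mean of 2 pools ran from 381 to 495 CPM for Gucy1a1, from 221.7 to 270.2 CPM for Gucy1b1 and from 216.4 to 313.4 CPM for Npr1. Wider ranges were seen for Pde3a, from 207.6 CPM in cluster 4 to 496 CPM in cluster 2, and for Pde5a, from 89.2 CPM in cluster 5 to 225.3 CPM in cluster 2. This was not particular to phosphodiesterases, as Npr2 ran from 38.6 CPM in cluster 0 to 129.9 CPM in cluster 8. Pools within a cluster also differed, with Pde3a at 386.4 and 605.7 CPM (pool A and pool B) in cluster 2 and 147.9 and 267.4 CPM in cluster 4. Cluster 2 had the mast cell genes Tpsb2, Cpa3 and Mcpt4 among its 10 leading genes, and cluster 4 the platelet genes Itga2b, Gp9 and Ppbp. Without both clusters the same count of 5 genes was called against fibroblast-like cells and 3 against endothelial-like cells.

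The 33 unnamed cells (10 in pool A and 23 in pool B) had the highest Gucy1a1 of the groups formed at that resolution. It was at 1070 and 694 CPM there, while Gucy1b1 was at 252.3 and 252.4 CPM and Pde3a at 361.5 and 370.5 CPM. Npr1 was uneven at 8.88 and 171.6 CPM, and Mrvi1 at 70.5 and 251.3 CPM. Gucy1a1 over Gucy1b1 per exonic length was 2.39 and 1.55 in these cells. They were led by Vtn and Myh6, with 8 of 8 smooth muscle and 4 of 6 pericyte markers at 100 CPM or more. Cardiac muscle markers summed to 102.9 and 1558 CPM, and the part of such a mixture in these levels was not tested. At resolution 1.5 a pericyte-like cluster of 8 cells (5 and 3) had Gucy1a1 at 1660 and 719 CPM, Gucy1b1 at 407 and 268.7 CPM and Pde3a at 430 and 369 CPM, with Npr1 at 2.54 and 3.80 CPM and Npr3 at 0. No test was run for either group.

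Of 61 other genes listed for the pathway, 60 were in the table. The ligands Nppa and Nppb had 0 counts in all 3 classes, where 3 counts would be 0.0332 and 0.0362 CPM in the smooth muscle-like cells. Nos3, the endothelial nitric oxide synthase, was at 1.08 and 1.42 CPM in the smooth muscle-like cells, against 394 and 224.1 CPM in the endothelial-like cells (-7.99 ± 0.81, adjusted p = 6.09e-21). In fibroblast-like cells it was at 1.65 and 0.54 CPM, lower than in endothelial-like cells by a log2 value of -8.11 ± 0.87 (adjusted p = 0.00058). The call against smooth muscle-like cells held in all 10 alternatives with a test, and that against fibroblast-like cells was lost in 1 of 9. Nos3 was thus highest in endothelial-like cells, and Gucy1a1 was higher in smooth muscle-like cells than in these.

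Compared with fibroblast-like cells, 40 of these genes passed the filter on low counts, and 5 were higher, 2 lower and 33 not called, with a median log2 fold change of 0.89. Of all genes tested 2.31% were called as higher and 3.27% as lower, and the 2 lower calls are not read as a trait of the list. Of 14 genes listed as kinase substrates 12 were tested, and 4 were higher and 8 not called. Among the 8 were Vasp (adjusted p = 0.0683) and Kcnma1, another subunit of the channel that Kcnmb1 belongs to (adjusted p = 0.1055). Kcnmb1, the smooth muscle subunit of the calcium-activated potassium channel, was at 516 and 538 CPM in the smooth muscle-like cells, against 8.85 and 21.7 CPM in the fibroblast-like cells (5.12 ± 0.40, adjusted p = 0.00162). Hspb6, a small heat shock protein phosphorylated in relaxing muscle, was at 718 and 984 CPM in the smooth muscle-like cells, against 25.3 and 67.9 CPM in the fibroblast-like cells (4.22 ± 0.31, adjusted p = 0.00143). The other called genes listed as substrates were Csrp1 (3.43 ± 0.19, adjusted p = 0.000711) and Ppp1r12a, the targeting subunit of myosin phosphatase (2.81 ± 0.29, adjusted p = 0.00434). Cyb5r3, a reductase that keeps the heme of the soluble cyclase reduced, was at 1243 and 1253 CPM in the smooth muscle-like cells and 511 and 421 CPM in the fibroblast-like cells (1.31 ± 0.18, adjusted p = 0.0136). Kcnmb1, Hspb6 and Csrp1 held in all 10 alternatives, and Ppp1r12a and Cyb5r3 were lost in 1 each.

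The 2 lower genes were Mme, neprilysin, which degrades natriuretic peptides, and Ddah2, which clears an inhibitor of nitric oxide synthase. Mme was at 9.72 and 3.51 CPM in the smooth muscle-like cells, against 73.8 and 104.5 CPM in the fibroblast-like cells (-4.03 ± 0.72, adjusted p = 0.0314), and against endothelial-like cells, with 1 count in all, it was higher in fibroblast-like cells (adjusted p = 0.0377). Ddah2 was at 94.6 and 117.5 CPM in the smooth muscle-like cells, against 325.6 and 257.6 CPM in the fibroblast-like cells (-1.58 ± 0.29, adjusted p = 0.0347). Each of these 2 calls was lost in 1 of 10 alternatives.

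Against endothelial-like cells 41 pathway genes were tested, and 5 were higher (Kcnmb1, Hspb6, Csrp1, Ppp1r12a and Cyb5r3), 2 lower (Nos3 and Abcc4) and 34 not called, with a median of 1.43. Of all genes tested there 3.27% were called as higher and 3.92% as lower. Abcc4, an exporter of cyclic nucleotides, was at 7.06 and 5.92 CPM in the smooth muscle-like cells, against 104.2 and 96.1 CPM in the endothelial-like cells (-4.04 ± 1.29, adjusted p = 0.0287). Ppp1r12a differed between pools, with 558 and 456 CPM in the smooth muscle-like cells and 333.7 and 35.95 CPM in the endothelial-like cells (2.08 ± 0.47, adjusted p = 0.000247), and without pool A its log2 ratio was 3.67 and without pool B 0.74. Kcnmb1 and Hspb6 held in all 10 alternatives, while Csrp1 was lost in 1, Cyb5r3 and Ppp1r12a in 3 each and Abcc4 in 4. Between fibroblast-like and endothelial-like cells 31 pathway genes were tested and Mme and Nos3 were called, beside 5.46% of all genes tested. Other genes of the list at 100 CPM or more in both pools of smooth muscle-like cells were Rhoa, Itpr1, Vasp, Adh5, Spr and Gtf2i. Their levels ran from 661 and 587 CPM for Rhoa to 135.8 and 141.4 CPM for Gtf2i, and none of the 6 was called in any comparison. Nosip, a binding partner of nitric oxide synthase, reached that level in both pools of fibroblast-like cells alone, at 102.4 and 154.2 CPM.

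Genes whose values over single smooth muscle-like cells most resembled those of each cGMP gene at 100 CPM or more were sought among 3702 genes. Mrvi1 was most like Hspg2, which encodes the matrix proteoglycan perlecan (Spearman rho 0.24 over the cells of pool A and 0.29 over those of pool B), then Cald1 and Ctdsp1. Npr1 was most like Mgat4a, at 0.23 and 0.18, then Pbxip1 and Ncam1. Gucy1a1 was most like Fam129a, at 0.16 and 0.22, then Heyl and Gucy1b1. Gucy1b1 was most like Plekho1, Cav1 and Marc2, and Pde3a like Pcdh7, at 0.22 and 0.22, Zbtb20 and Atp2b4. All these correlations are weak.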

How the data were processed

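Counts per gene and cell were deposited by the authors as whole numbers, with no unique molecular identifiers, for 675 cells. Per the submitters' processing notes bcl2fastq, Bowtie, Bowtie2, Subread and featureCounts were used with GRCm38 (mm10); the sources used here give no versions, order or annotation. Identifiers were named through GENCODE M21. No cell was removed and no doublet caller was run. Genes were split by a hash of the symbol into 23260 for clustering and 23220 for testing, and the 10 genes lay in the testing set. Cells were clustered with scanpy 1.11.5 (2000 variable genes, 20 components, 15 neighbours, Leiden resolution 1.0), and clusters were named from marker lists. Cluster 6, with markers of several types, was left unnamed by a rule set after seeing the data. Counts were summed per class and pool and tested with edgeR 4.0.16 (TMM, filterByExpr, quasi-likelihood F test, pool as block) in R 4.3.3, with Benjamini-Hochberg adjustment over all genes tested at 0.05; SE is the log2 fold change divided by the square root of F. The fit was also run on simulated sums with no pool effect and the same spread for all genes. Log2 changes of 2 were called for 79% of changed genes against fibroblast-like and 84% against endothelial-like cells. For changes of 4 it was 100% in both. Sums held mostly by 1 cell and pools that disagree were not simulated.

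The 10 genes, the 61 pathway genes and the marker lists were chosen with earlier results of these data known. The text names all 10 genes, the pathway genes called with the 5 largest absolute log2 fold changes per comparison, those at 100 CPM or more in both pools of a class, and the 3 genes most like each of the 10 that reached 100 CPM (the lower Spearman rho of the pools, among genes of 50 CPM or more). Per the labels, all classes of one pool have the same mice and plate; differences between pools correlated at r = 0.21 (smooth muscle-like with fibroblast-like), 0.20 (smooth muscle-like with endothelial-like) and 0.08 (fibroblast-like with endothelial-like) over 3539 genes. Alternatives were RLE size factors, DESeq2 1.42.0, no filter, no block, all genes tested, deeper cells only, 1 fit of all classes, resolutions 0.5 and 1.5, per-cell means and leaving out each pool. For shares of cells the alternative was thinning all cells to the same depth. Exact binomial intervals (95%) and the floor of 3 counts take in counting error alone. With 2 pools a gene's own spread is barely measured, and edgeR's quasi-likelihood test draws its error largely from all genes tested. Its p-values and SE therefore do not measure how well the pools agree for that gene. Against endothelial-like cells the error came wholly from all genes, and p-values there are smaller than the same SE would give against fibroblast-like cells. The p-values of these comparisons are not to be ranked against each other. Ppp1r12a still had an adjusted p of 0.000247 against endothelial-like cells, with ratios of 1.67 in pool A and 12.7 in pool B. The ratios of the pools are to be read beside each p-value.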

Additional observations from a re-analysis of the deposited data

How the results depend on the processing

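Across settings 572 single-gene values kept their side of the threshold or, without a test, moved by less than their error. Another 75 moved by more, 28 lost a call and 16 gained a call. These counts hold log2 values and also the shares of cells with a count of the 10 genes, before against after thinning. Thinning can only lower such a share, so the 75 do not measure how far log2 values depend on the settings. In all 22 log2 values changed sign, 8 of them under alternatives with a test. Against fibroblast-like cells, where 5.58% of genes and 5 of the 10 cGMP genes were called, DESeq2 called 19.7% and 8 of the 10, no filter 7.20% of genes, testing all genes 6.52%, and 1 fit of all classes 2.22% and 3 of the 10, while resolution 0.5 called 7.68% and 3 of the 10. Against endothelial-like cells (7.19% and 3) DESeq2 called 16.6% and 6 of the 10, no filter 4.46% and 5 of the 10, and testing all genes 6.61%. Between fibroblast-like and endothelial-like cells (5.46% and 0) DESeq2 called 14.9% and 1 of the 10, no filter 4.75%, all genes 5.31%, resolution 0.5 3.25% and resolution 1.5 2.54%. Between the largest smooth muscle-like clusters (0%) DESeq2 called 0.163% and no filter 0.0492%. Without the replicate block 4.57% of genes and 3 of the 10 were called against fibroblast-like cells, and 3.29% of genes and 1 of the 10 against endothelial-like cells, where Npr1 became -0.24 and Npr3 -0.67 on the log2 scale.

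Under alternatives with a test the other log2 values that changed sign were Pde1a against fibroblast-like cells (0.0047 in deeper cells), Npr1 against endothelial-like cells (-0.66 at resolution 1.5) and Npr3 (-0.23 in 1 fit of all classes). Between fibroblast-like and endothelial-like cells Gucy1a1 became 2.33 and Gucy1b1 0.21 at resolution 0.5, and Pde3a -1.46 at resolution 1.5. Of the 14 sign changes without a test, leaving out pool B gave -0.76 for Npr1 and -1.46 for Npr3 against endothelial-like cells, and -0.58 for Npr2 between fibroblast-like and endothelial-like cells, where leaving out pool A gave -0.68 for Pde5a. Means of CPM per cell gave -1.56 for Npr3 against endothelial-like cells and 0.21 for Gucy1a1 in fibroblast-like over endothelial-like cells. The other 8 were between the largest smooth muscle-like clusters. The cause was not tested. Values with 21 endothelial-like cells and 2 pools rest on few counts, so low levels of Prkg1, Npr3 and Pde1a could not be ordered. Gene shares are of the genes tested in each setting. Leaving out clusters 2 and 4 was chosen after seeing the data.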
